A study of Homo sapiens with 9 samples.

Results

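Mitochondrial ribosomal protein genes were followed in HepG2 cells, a human liver cancer line, in which the pseudokinase gene TRIB3 had been silenced. The group was taken by symbol: every line of the deposited expression table whose name is MRPL or MRPS followed by a number, with or without a letter A to C. This gave 78 of 24204 gene symbols, of which 49 MRPL genes are named for the large subunit and 29 MRPS genes for the small subunit. Cells had received a lentivirus with a control hairpin RNA (shCtrl, labelled Ctrl_shRNA) or with 1 of 2 hairpins against TRIB3 (shTRIB3-1 and shTRIB3-2, labelled TRIB3_sh1 and TRIB3_sh2), with 3 libraries in each group. All 9 libraries shared the lentiviral infection for 48 h and the puromycin selection for a further 48 h. The labels give growth in serum-containing DMEM with high glucose for all of them. The study's RNA-seq methods speak of glutamine-deprived cells, so the medium at harvest is not settled. RNA was taken after selection, at the passage the labels call P2. The labels name no cloning step, and they do not say whether the libraries of a group came from separate infections. The comparison asks how the transcripts for the mitochondrial translation machinery differ when TRIB3 is lowered.

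The mitochondrial ribosome sits in the organelle's matrix and makes the few proteins that mitochondrial DNA encodes, which are core subunits of the respiratory chain and of ATP synthase. Its ribosomal RNAs come from mitochondrial DNA, but its proteins come from nuclear genes scattered over the chromosomes, are made in the cytosol and are imported. Some of these proteins descend from bacterial ribosomal proteins, and others are found only in mitochondria, where they surround a shortened RNA core. Liver cells are rich in mitochondria, and their nuclear genes for mitochondrial proteins are known to answer to the factors NRF1, GABP (an ETS-family factor) and YY1, and to the coactivator encoded by PPARGC1A.

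The hairpins were first checked against the gene they target. Both are shown because they define the groups. Their targets lie in coding exons of TRIB3 (chr20:362835-397559, plus strand, GRCh38), with shTRIB3-1 at chr20:388072-388092 and shTRIB3-2 at chr20:391473-391493. An exact match was found in transcripts of TRIB3 and in those of 0 of the 78 mitochondrial ribosomal protein genes.
shTRIB3-1: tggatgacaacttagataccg
shTRIB3-2: gccgtgctcttccgccagatg

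TRIB3 itself stood at 67.9, 65.8 and 66.6 FPKM in the shCtrl libraries. FPKM is a fragment count divided by gene length and by library depth. It stood at 34.1, 32.7 and 34.0 FPKM with shTRIB3-1 and at 20.6, 20.7 and 20.4 FPKM with shTRIB3-2. The groups did not overlap, and the remaining level was 50.3% and 30.8% of the shCtrl mean. TRIB3 was therefore lower with shTRIB3-2 than with shTRIB3-1, by 0.71 on the log2 scale.

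Because members lie near other genes whose starts they share, the stretch upstream of the start is shown for 5 members that changed most or that differ in motif content. The sequences are RefSeq's for GRCh38.p14 and lie upstream of the first start that RefSeq lists. They are cut where an annotated exon begins, including exons of the member itself. MRPL47 (minus strand, chr3:179604650-179604689) is shown for the short gap that separates it from the gene NDUFB5, and the capitals mark an ETS motif, CCGGAAG. MRPL50 (minus strand, chr9:101398619-101398850) carries CCAAT on the opposite strand, in capitals as ATTGG. MRPL17 (minus strand, chr11:6683341-6683590) carries in capitals an NRF1 motif, which is GCGCA and GCGC with any 1 base between them. MRPS6 (plus strand, chr21:34073328-34073548), a member that rose, carries in capitals a stretch with 4 runs of at least 3 G separated by 1 to 7 bases. This is the pattern used to search for possible G-quadruplex DNA. The bases printed for MRPS6 precede the RefSeq start but lie inside the gene as GENCODE annotates it, chr21:34073224-34143034. MRPS10 (minus strand, chr6:42217862-42218111), which also rose, carries an ETS motif in capitals.
MRPL47: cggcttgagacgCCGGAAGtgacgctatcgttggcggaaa
MRPL50: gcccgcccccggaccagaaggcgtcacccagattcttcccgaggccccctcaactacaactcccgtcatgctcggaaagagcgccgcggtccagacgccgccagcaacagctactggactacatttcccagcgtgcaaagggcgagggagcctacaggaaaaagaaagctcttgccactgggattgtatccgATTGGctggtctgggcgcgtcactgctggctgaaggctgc
MRPL17: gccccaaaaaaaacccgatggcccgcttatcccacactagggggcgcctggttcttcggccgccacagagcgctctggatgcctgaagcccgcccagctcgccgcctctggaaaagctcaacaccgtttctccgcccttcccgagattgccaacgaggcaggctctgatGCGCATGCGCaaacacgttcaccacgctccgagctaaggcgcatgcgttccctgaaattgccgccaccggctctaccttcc
MRPS6: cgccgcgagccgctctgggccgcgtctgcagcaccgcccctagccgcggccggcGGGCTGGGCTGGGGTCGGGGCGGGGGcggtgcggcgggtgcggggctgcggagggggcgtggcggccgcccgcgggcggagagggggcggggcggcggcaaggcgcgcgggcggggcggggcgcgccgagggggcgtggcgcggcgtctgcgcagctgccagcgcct
MRPS10: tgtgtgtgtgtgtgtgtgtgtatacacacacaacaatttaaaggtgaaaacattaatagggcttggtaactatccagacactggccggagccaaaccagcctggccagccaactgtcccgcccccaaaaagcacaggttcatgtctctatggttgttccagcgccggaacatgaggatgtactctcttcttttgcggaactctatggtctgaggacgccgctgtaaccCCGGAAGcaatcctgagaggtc

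Sequencing depth recovered from the steps of the FPKM values lay between 34206726 and 36311029 fragments per library. The members together took 0.385% ± 0.00405 of the fragments in shCtrl, 0.331% ± 0.00422 with shTRIB3-1 and 0.329% ± 0.00323 with shTRIB3-2 (mean ± SD, n = 3 each). Among the markers of HepG2's hepatocyte-like state, 9 of 9 were at 26.2 FPKM or more in every library, with summed levels of 8381 to 9034 FPKM in shCtrl, 8601 to 9040 with shTRIB3-1 and 10815 to 11129 with shTRIB3-2. Endothelial markers were under 1 FPKM for 3 of 3 genes. Of the blood markers, PTPRC, CD3E and HBB were under 1 FPKM, while LYZ, a lysozyme gene, was at mean levels of 1080, 509 and 597 FPKM in shCtrl, shTRIB3-1 and shTRIB3-2. Of the fibroblast and stellate cell markers, 4 of 5 were under 1 FPKM and ACTA2 had means of 58.6, 40.1 and 55.8 FPKM. The part of these differences in the results was not tested.

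In the shCtrl libraries the members were expressed above most genes. Their group means ran from 3.72 to 120.4 FPKM, with a median of 24.7 FPKM and quartiles of 15.7 and 46.2 FPKM, against a median of 8.40 FPKM over the 11265 genes tested. The median was 26.2 FPKM for the large subunit and 21.3 FPKM for the small subunit. Cytosolic ribosomal protein genes stood far higher, at a median of 375 FPKM. The highest members were MRPL18, MRPL12 and MRPL45, and the lowest tested were MRPS28, MRPL42 and MRPS33. A gene was tested when it reached 1 FPKM in at least 3 of the 9 libraries, and 77 of the 78 members did so, each with at least 2.44 FPKM and 70 fragments in every library.

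MRPS24 (chr7:43866558-43869893, minus strand) was the member not tested. It was listed at 0, 0 and 0.167 FPKM in shCtrl, at 0.0438, 0 and 0 with shTRIB3-1 and at 0, 0 and 0.0427 with shTRIB3-2. The readthrough gene URGCP-MRPS24 covers 23.2% of its exons, so fragments may have been assigned away from it, and no fold is given.

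Most members were lower in TRIB3-silenced cells. With shTRIB3-1, 52 of 77 members fell (67.5%) and 10 rose (13%) at an adjusted p under 0.05 (limma on log2(FPKM + 0.1), Benjamini-Hochberg over all tested genes), and 15 did not pass. Over all tested genes the same rule gave 41.5% lower and 32.9% higher. With shTRIB3-2, 47 members fell (61.0%), 12 rose (15.6%) and 18 did not pass, against 40.5% lower and 35.4% higher over all tested genes. The changes were mostly small: the median log2 fold change of the members was -0.23 with shTRIB3-1 (quartiles -0.41 and -0.01) and -0.25 with shTRIB3-2 (quartiles -0.41 and -0.02), where all tested genes had medians of -0.06 and -0.03. Fold changes are on the log2(FPKM + 0.1) scale. In these bulk libraries, fewer cells of a kind and less RNA per cell cannot be told apart. Both comparisons use the same 3 shCtrl libraries and are therefore given side by side.

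Counted without a test, the 3 knockdown libraries lay below all 3 shCtrl libraries for 51 members with shTRIB3-1 and above them for 11, where the background over all tested genes was 43.0% below and 34.2% above. With shTRIB3-2 the counts were 44 below and 10 above, against 41.3% and 36.1%. A change of more than 2-fold at an adjusted p under 0.05 was reached by 1 member, MRPL47, with each hairpin, whereas 11.5% of all tested genes with shTRIB3-1 and 12.3% with shTRIB3-2 reached it.

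**Figure D1:**
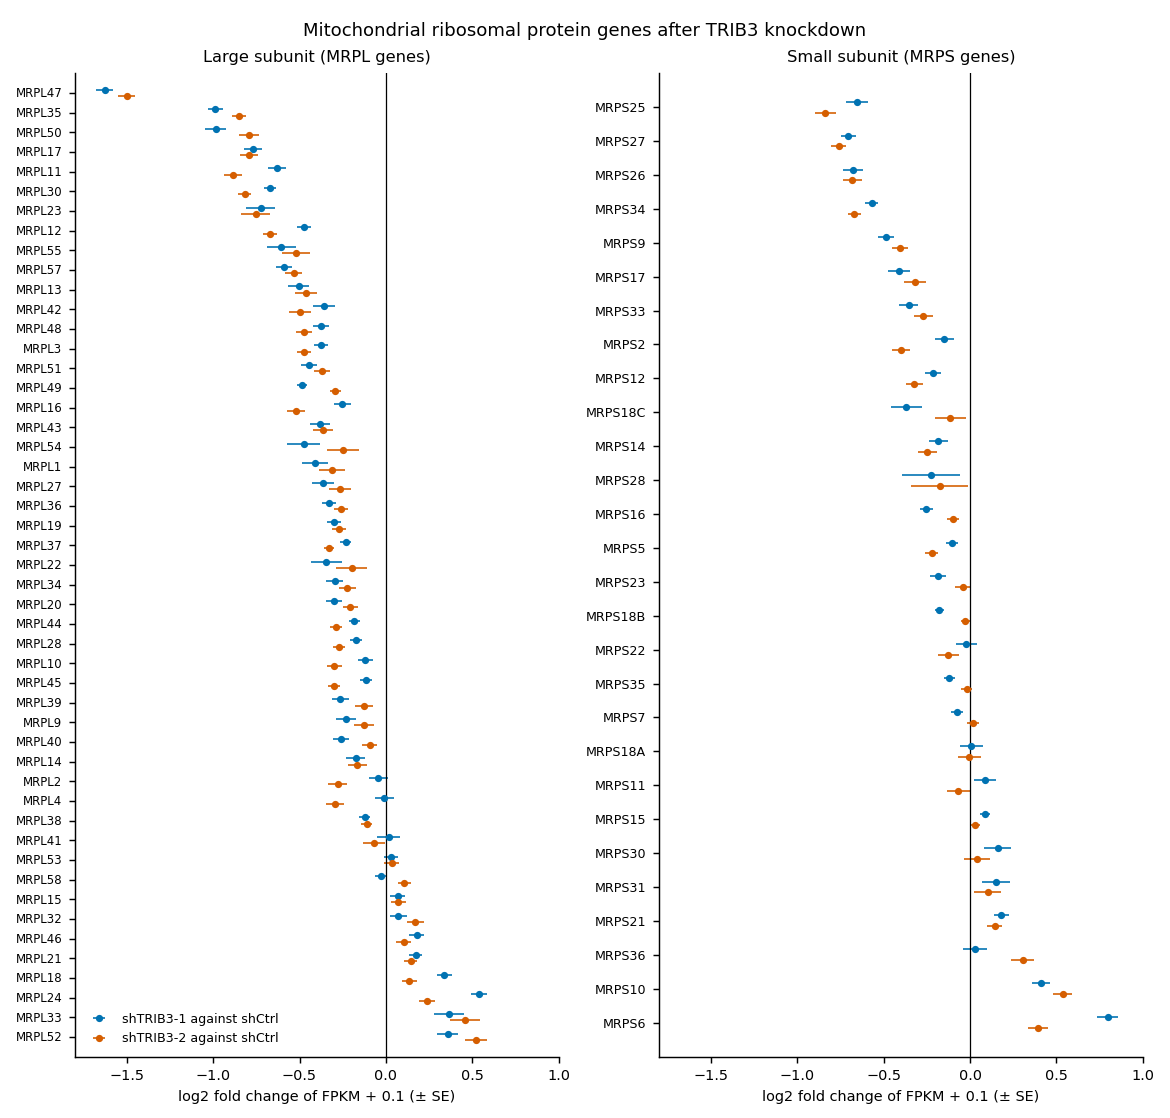
Log2 fold change (x axis, FPKM + 0.1 scale) of each of the 77 tested members with shTRIB3-1 (blue) and shTRIB3-2 (orange) against shCtrl, with bars for ± 1 SE, large subunit on the left and small subunit on the right. MRPL47 lies apart at -1.63 and -1.5, most large-subunit genes lie left of 0, and MRPS6, MRPS10, MRPL52, MRPL33 and MRPL24 lie to the right.

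The large subunit held more of the lower members. With shTRIB3-1, 36 of 49 MRPL genes fell and 6 rose, and with shTRIB3-2, 35 fell and 8 rose. Of 28 tested MRPS genes, 16 fell and 4 rose with shTRIB3-1, and 12 fell and 4 rose with shTRIB3-2. As shares, 73.5% and 71.4% of the MRPL genes and 57.1% and 42.9% of the MRPS genes fell, against 41.5% and 40.5% of all tested genes, so the small-subunit share with shTRIB3-2 was near the background. The median log2 fold change of the MRPL genes was -0.30 (quartiles -0.48 and -0.04) with shTRIB3-1 and -0.28 (quartiles -0.47 and -0.11) with shTRIB3-2. For the MRPS genes it was -0.16 (quartiles -0.36 and 0.04) and -0.11 (quartiles -0.32 and 0.02), and without shCtrl replicate 2 the shTRIB3-2 value was -0.06. The small-subunit medians shrank to -0.084 and -0.056 when libraries were centred on their median, without a change of sign in any of the 4 medians under centring or TPM scaling.

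The difference between the subunits was also seen library by library. The median MRPL deviation from the shCtrl mean was -0.30, -0.27 and -0.26 in the shTRIB3-1 libraries and -0.30, -0.27 and -0.28 in the shTRIB3-2 libraries. For the MRPS genes it was -0.14, -0.16 and -0.14, and -0.15, -0.05 and -0.14. Every knockdown library was thus lower for the large subunit than any was for the small subunit. The summed FPKM of the MRPL genes over that of the MRPS genes was 2.06 ± 0.0350 in shCtrl, 2.01 ± 0.00159 with shTRIB3-1 and 1.94 ± 0.00602 with shTRIB3-2 (mean ± SD, n = 3). These subunit values are descriptions, and no p is given for them.

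The small-subunit median depended on genes that overlap other genes. A member was set aside when more than 10% of its exon bases lay under another annotated gene, because reads there may belong to either. The 10% limit was applied to each strand separately. Without those members, 33 MRPL genes had medians of -0.33 with shTRIB3-1 and -0.30 with shTRIB3-2, of which 25 and 23 fell. The remaining 16 MRPS genes had medians of -0.02 and -0.00, of which 7 and 4 fell while 4 and 4 rose. The lower shares were 75.8% and 69.7% for these MRPL genes and 43.75% and 25% for these MRPS genes. Over all tested genes they were 41.5% and 40.5%. The MRPS share was thus near the background with shTRIB3-1 and below it with shTRIB3-2. The gap between the subunits was therefore wider among members with at most 10% exon overlap, and their small-subunit shift was close to 0. Over both subunits the 49 remaining members had medians of -0.21 and -0.25.

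Members were also divided by descent, and the medians were alike. The 45 tested members with a bacterial counterpart had a median of -0.23 with shTRIB3-1, with 30 lower and 8 higher, and of -0.26 with shTRIB3-2, with 29 lower and 8 higher. The 31 mitochondria-specific members had medians of -0.23 and -0.25, with 22 lower and 2 higher, and 18 lower and 3 higher. The lower shares were 66.7% and 64.4% with a bacterial counterpart and 71.0% and 58.1% for the mitochondria-specific members. Over all tested genes they were 41.5% and 40.5%.

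**Figure D2:**
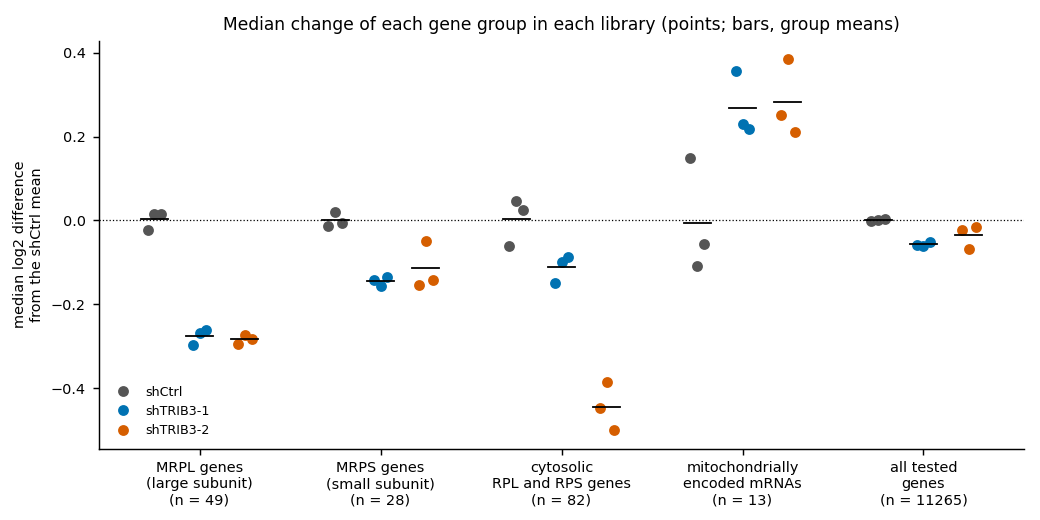
Median log2 difference from the shCtrl mean (y axis) over the genes of each group in each of the 9 libraries (points) with the mean of each set of 3 libraries (bars). MRPL genes lie at -0.30 to -0.26 in the 6 knockdown libraries and MRPS genes at -0.16 to -0.05, cytosolic ribosomal protein genes are lowest with shTRIB3-2, and mitochondrially encoded mRNAs lie above 0.

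MRPL47 was the member that changed most. It encodes uL29m, a large-subunit protein near the exit of the peptide tunnel (chr3:179588285-179604649, minus strand). Its level was 28.5, 28.0 and 25.8 FPKM in shCtrl, 8.34, 9.04 and 9.05 with shTRIB3-1, and 9.92, 9.35 and 9.64 with shTRIB3-2. The 6 knockdown libraries were far below the 3 shCtrl libraries, at 32.1% and 35.1% of the shCtrl mean. MRPL47 fell by 1.63 on the log2 scale with shTRIB3-1 (SE 0.05, limma adjusted p = 5.12e-11) and by 1.5 with shTRIB3-2 (SE 0.05, adjusted p = 6.92e-11). The counts behind these values were 1261 to 1388 fragments in shCtrl, 389 to 429 with shTRIB3-1 and 443 to 462 with shTRIB3-2. Of its exon bases, 9.01% lie under ACTL6A on the other strand.

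Other large-subunit genes that fell most included MRPL35, which encodes bL35m (chr2:86199355-86213790, plus strand). It was at 18.7, 18.2 and 18.2 FPKM in shCtrl, 8.94, 9.16 and 9.55 with shTRIB3-1, and 9.78, 10.3 and 10.3 with shTRIB3-2. The 6 knockdown libraries lay close together, at 50.2% and 55.2% of shCtrl, and the log2 fold changes were -0.99 (SE 0.04, limma adjusted p = 6.92e-10) and -0.85 (SE 0.04, adjusted p = 2.00e-09). MRPL50, a mitochondria-specific protein (chr9:101387633-101398618, minus strand), was at 26.3, 26.6 and 25.7 FPKM in shCtrl, 11.9, 14.6 and 13.1 with shTRIB3-1, and 15.0, 15.1 and 15.3 with shTRIB3-2. It fell by 0.99 with shTRIB3-1 (SE 0.06, adjusted p = 1.62e-08) and by 0.79 with shTRIB3-2 (SE 0.06, adjusted p = 1.03e-07). The groups did not overlap for either gene.

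Further members that fell strongly have known places in the large subunit. MRPL17, a tunnel-exit protein (chr11:6680385-6683340, minus strand), was at 11.1, 10.2 and 9.83 FPKM in shCtrl, 6.22, 5.98 and 5.91 with shTRIB3-1, and 5.90, 5.92 and 5.96 with shTRIB3-2. The log2 fold changes were -0.77 and -0.79 (SE 0.05, limma adjusted p = 5.12e-08 and 3.24e-08), so the hairpins gave values that lay within their error of each other. MRPL23, another tunnel-exit protein, was at 9.14, 11.3 and 11.6 FPKM in shCtrl, 6.76, 6.41 and 5.99 with shTRIB3-1, and 5.998, 6.71 and 6.08 with shTRIB3-2, and fell by 0.73 and 0.75 (adjusted p = 7.61e-06 and 4.90e-06). MRPL11, which forms the base of the stalk, was at 17.4, 15.7 and 17.2 FPKM in shCtrl, 11.1, 10.1 and 11.2 with shTRIB3-1, and 9.09, 8.74 and 9.22 with shTRIB3-2. Here the 3 groups stepped down without overlap, by 0.63 and 0.88 on the log2 scale against shCtrl (adjusted p = 4.35e-07 and 1.67e-08).

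MRPL12, the stalk protein, was among the most abundant members at 87.7, 92.0 and 88.5 FPKM in shCtrl, 62.1, 64.2 and 66.5 with shTRIB3-1, and 58.3, 57.6 and 52.7 with shTRIB3-2. It fell by 0.48 and 0.67 on the log2 scale (limma adjusted p = 5.76e-07 and 2.14e-08), although another gene annotated on the same strand covers 69.5% of its exons, so part of this signal could be that gene's. MRPL30, encoding uL30m, was at 18.5, 18.7 and 19.04 FPKM in shCtrl, 11.7, 11.99 and 11.5 with shTRIB3-1, and 10.6, 10.8 and 10.4 with shTRIB3-2, and fell by 0.67 and 0.82 (adjusted p = 6.85e-09 and 9.68e-10). Another gene covers 11.8% of the MRPL30 exons. MRPL45, a tunnel-exit protein that faces the membrane, was at 78.9, 76.9 and 74.5 FPKM in shCtrl, 71.2, 71.1 and 70.0 with shTRIB3-1, and 59.9, 64.8 and 62.5 with shTRIB3-2. It fell by 0.12 with shTRIB3-1 (adjusted p = 0.0091), a call lost when libraries were centred on their median (adjusted p = 0.487), and by 0.30 with shTRIB3-2.

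**Figure D3:**
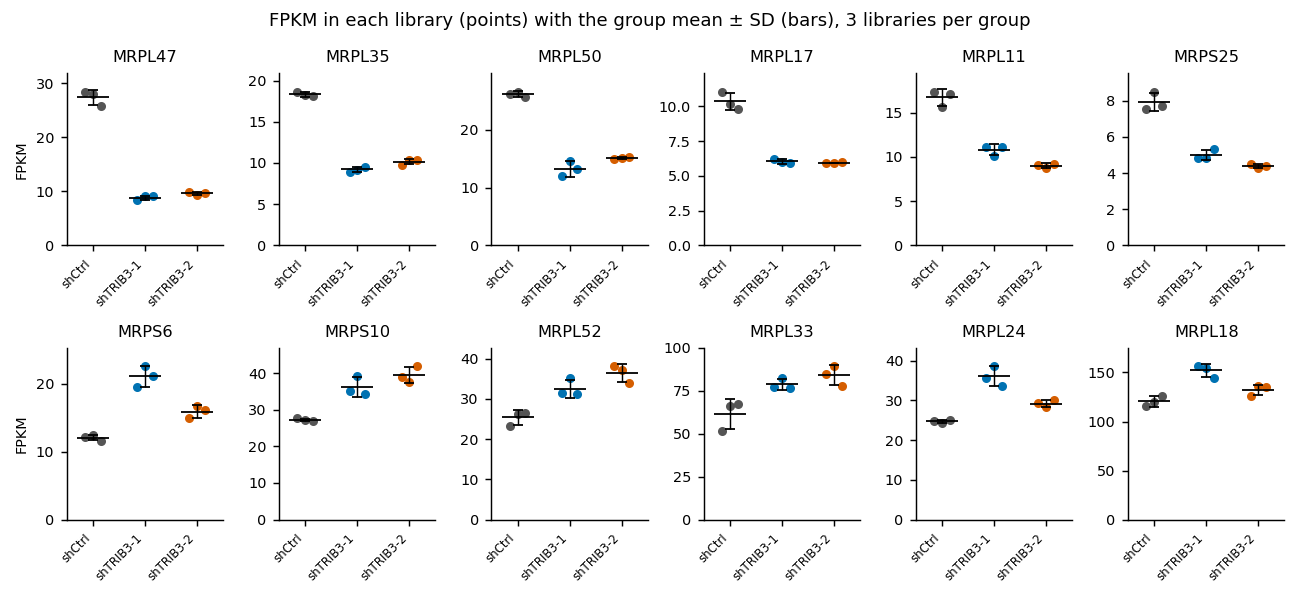
FPKM (y axis, from 0) of 12 members in each library (points), with group means ± SD (bars, n = 3), the upper row holding members that fell and the lower row members that rose. MRPL47 drops from 25.8 to 28.5 in shCtrl to 8.34 to 9.92 in the knockdown libraries, whereas MRPS6 climbs from 11.6 to 12.5 to between 14.9 and 22.7.

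In the small subunit, MRPS25, MRPS26, MRPS27 and MRPS34, all mitochondria-specific proteins, had the lowest log2 fold changes, and the last 3 were named after their values had been seen. Their class as a whole did not stand lower, with medians of -0.18 and -0.08 for 12 mitochondria-specific MRPS genes and -0.15 and -0.11 for 15 with a bacterial counterpart. MRPS27, a pentatricopeptide-repeat protein, was at 34.1, 31.4 and 30.7 FPKM in shCtrl, 19.2, 19.6 and 19.98 with shTRIB3-1, and 18.3, 19.4 and 18.9 with shTRIB3-2. It fell by 0.70 and 0.76 on the log2 scale (limma adjusted p = 1.89e-08 and 7.80e-09). MRPS26 was at 50.7, 55.9 and 57.4 FPKM in shCtrl, 37.1, 32.9 and 32.4 with shTRIB3-1, and 33.7, 35.0 and 33.3 with shTRIB3-2, a fall of 0.68 with either hairpin (adjusted p = 3.24e-07 and 2.71e-07). In both genes every knockdown library was well below every shCtrl library. MRPS25 was at 7.54, 8.51 and 7.74 FPKM in shCtrl, 4.82, 4.83 and 5.35 with shTRIB3-1, and 4.51, 4.28 and 4.39 with shTRIB3-2. It fell by 0.65 and 0.84 (adjusted p = 1.22e-06 and 1.13e-07), but NR2C2 covers 39.1% of its exons from the other strand. MRPS34 was at 44.9, 47.2 and 47.3 FPKM in shCtrl, 30.8, 30.6 and 32.5 with shTRIB3-1, and 29.2, 29.9 and 28.5 with shTRIB3-2. It fell by 0.57 and 0.67 (adjusted p = 2.94e-08 and 5.68e-09), and EME2 covers 31.2% of its exons from the other strand.

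A smaller set rose. MRPS6, encoding bS6m of the small subunit (chr21:34073224-34143034, plus strand), was at 12.2, 12.5 and 11.6 FPKM in shCtrl, 19.5, 22.7 and 21.1 with shTRIB3-1, and 14.9, 16.8 and 16.1 with shTRIB3-2. The groups did not overlap, and the means were 174% and 132% of shCtrl, with log2 fold changes of 0.80 (SE 0.06, limma adjusted p = 1.09e-07) and 0.39 (SE 0.06, adjusted p = 5.73e-05). The transporter gene SLC5A3 shares 6.20% of its exon bases. MRPS10, encoding uS10m (chr6:42206807-42217861, minus strand), was at 27.6, 27.1 and 26.9 FPKM in shCtrl, 35.2, 39.3 and 34.3 with shTRIB3-1, and 39.0, 37.5 and 42.0 with shTRIB3-2. It rose by 0.41 and 0.54 (adjusted p = 1.63e-05 and 1.40e-06). MRPS21, encoding bS21m, was at 29.1, 29.3 and 27.9 FPKM in shCtrl, 31.4, 33.4 and 33.1 with shTRIB3-1, and 30.0, 33.5 and 31.9 with shTRIB3-2, and rose by 0.18 and 0.14 (adjusted p = 0.00236 and 0.0103). The second of these was lost without shTRIB3-2 replicate 2 (adjusted p = 0.0503).

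In the large subunit, MRPL52, a mitochondria-specific protein, was at 23.3, 26.3 and 26.6 FPKM in shCtrl, 31.4, 35.1 and 31.1 with shTRIB3-1, and 38.2, 37.1 and 34.0 with shTRIB3-2. It rose by 0.36 and 0.52 on the log2 scale (limma adjusted p = 0.000232 and 8.59e-06). MRPL33, encoding bL33m, was at 51.5, 65.9 and 67.0 FPKM in shCtrl, 77.3, 82.3 and 76.4 with shTRIB3-1, and 84.5, 89.4 and 78.0 with shTRIB3-2, and rose by 0.37 and 0.46 (adjusted p = 0.00195 and 0.00036). BABAM2 shares 21.1% of the exon bases of MRPL33, and the lowest shCtrl library stood apart from the other two. MRPL24, a tunnel-exit protein, was at 24.9, 24.3 and 24.98 FPKM in shCtrl, 35.7, 38.7 and 33.7 with shTRIB3-1, and 29.2, 28.3 and 29.99 with shTRIB3-2, and rose by 0.54 and 0.24 (adjusted p = 4.49e-07 and 0.000504).

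MRPL18, encoding uL18m of the central protuberance, was the most abundant member, at 115, 120.04 and 126 FPKM in shCtrl, 157, 155 and 145 with shTRIB3-1, and 126, 136 and 135 with shTRIB3-2. It rose by 0.34 with shTRIB3-1 (limma adjusted p = 1.77e-05) and by 0.13 with shTRIB3-2 (adjusted p = 0.0136), where the lowest knockdown library met the highest shCtrl library. The second value lost its call without shCtrl replicate 1 (adjusted p = 0.0528), shTRIB3-2 replicate 2 (0.0554) or shTRIB3-2 replicate 3 (0.0511). MRPL21, encoding bL21m, was at 19.7, 21.2 and 20.2 FPKM in shCtrl, 22.4, 23.8 and 22.8 with shTRIB3-1, and 22.3, 22.8 and 22.5 with shTRIB3-2, and rose by 0.17 and 0.14 (adjusted p = 0.00119 and 0.0041).

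At the low end of expression, MRPL42 was at 4.94, 5.41 and 5.54 FPKM in shCtrl, 4.003, 4.10 and 4.21 with shTRIB3-1, and 3.56, 3.74 and 3.88 with shTRIB3-2, and fell by 0.36 and 0.50 on the log2 scale (limma adjusted p = 0.000231 and 1.36e-05). MRPS33 was at 5.49, 5.74 and 5.94 FPKM in shCtrl, 4.32, 4.51 and 4.51 with shTRIB3-1, and 4.85, 4.50 and 4.85 with shTRIB3-2, and fell by 0.36 and 0.27 (adjusted p = 0.000102 and 0.000868). MRPS28 had the widest error, at 3.17, 4.14 and 3.86 FPKM in shCtrl, 3.49, 2.61 and 3.43 with shTRIB3-1, and 2.44, 3.94 and 3.60 with shTRIB3-2. Its groups overlapped, and a change was not detectable at this depth (95% intervals of the log2 fold change -0.59 to 0.14 and -0.54 to 0.19).

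Several members carry a ribosomal name but sit elsewhere. MRPS36 is now known as a subunit of the 2-oxoglutarate dehydrogenase complex, and it was at 19.9, 21.6 and 22.9 FPKM in shCtrl, 21.1, 20.8 and 23.9 with shTRIB3-1, and 24.3, 27.7 and 27.6 with shTRIB3-2. Its log2 fold change was 0.03 with shTRIB3-1 (limma adjusted p = 0.706), and it rose by 0.30 with shTRIB3-2 (adjusted p = 0.00135). MRPS30 and MRPS18A, small-subunit proteins by name, lie in the large subunit, and neither passed the test with log2 fold changes of 0.16 and 0.04 for MRPS30 and 0.01 and -0.00 for MRPS18A. MRPS30 with shTRIB3-1 did pass after median centring (0.24, adjusted p = 0.0233), in a fit of the 6 libraries compared (adjusted p = 0.0225), without shCtrl replicate 1 (0.0385) and without shTRIB3-2 replicate 1 (0.0171). With these 3 genes placed by structure, the large-subunit medians were -0.26 with shTRIB3-1 and -0.27 with shTRIB3-2. The small-subunit medians were then -0.18 and -0.13. The subunits thus lay closer together than by name, where the medians were -0.30 and -0.16 with shTRIB3-1 and -0.28 and -0.11 with shTRIB3-2. MRPL58, a peptidyl-tRNA hydrolase built into the large subunit, had a log2 fold change of -0.03 with shTRIB3-1 (adjusted p = 0.462) and rose by 0.11 with shTRIB3-2 (adjusted p = 0.0164). The rise of MRPL58 lost its call on the TPM scale (adjusted p = 0.0833) and without shTRIB3-2 replicate 1 (adjusted p = 0.0724).

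MRPS18A, MRPS18B and MRPS18C are paralogs related to the bacterial protein S18, and the products of MRPS18B and MRPS18C sit in the small subunit. MRPS18B was at 59.2, 58.6 and 58.4 FPKM in shCtrl, 51.9, 51.3 and 52.6 with shTRIB3-1, and 57.8, 57.8 and 57.2 with shTRIB3-2. It fell by 0.18 with shTRIB3-1 (limma adjusted p = 5.98e-05) and had a log2 fold change of -0.03 with shTRIB3-2 (adjusted p = 0.34). MRPS18C fell by 0.37 with shTRIB3-1 (adjusted p = 0.00271) and had -0.11 with shTRIB3-2 (adjusted p = 0.265), which became -0.21 without shCtrl replicate 1 (adjusted p = 0.0329). ABRAXAS1 covers 40.2% of its exons from the other strand. MRPS18A had 95% intervals of -0.14 to 0.15 and -0.15 to 0.14.

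The hairpins were then compared directly. Between shTRIB3-2 and shTRIB3-1, 13 of 77 members were higher and 18 lower at an adjusted p under 0.05, and 46 did not pass, against 25.1% higher and 20.7% lower over all tested genes. The median log2 difference was 0.00 over the members and 0.03 over all tested genes. The split turned with the scaling, being 8 higher and 22 lower after median centring and 18 higher and 12 lower on the TPM scale. No member differed by more than 2-fold by limma, 0 at an adjusted and 0 at an unadjusted p under 0.05, where 2.08% of all tested genes did at the adjusted p.

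The members that differed most between the hairpins did so in both directions. MRPS6 was lower with shTRIB3-2 by 0.40 on the log2 scale (limma adjusted p = 0.000166) and MRPL24 by 0.30 (adjusted p = 0.000249), so their rise was smaller with the hairpin that left less TRIB3. MRPL4, encoding uL4m, was at 23.8, 21.1 and 23.4 FPKM in shCtrl, 23.6, 22.2 and 21.9 with shTRIB3-1, and 18.03, 17.8 and 19.7 with shTRIB3-2, a difference of -0.29 between the hairpins (adjusted p = 0.00115). MRPS36 was higher with shTRIB3-2 by 0.28 (adjusted p = 0.00577). MRPL11, MRPL12, MRPL30 and MRPS25 were lower with shTRIB3-2 by 0.25, 0.19, 0.15 and 0.18 (adjusted p = 0.00227, 0.00255, 0.00612 and 0.032). MRPL35 and MRPL50 were instead higher by 0.14 and 0.19 (adjusted p = 0.0181 and 0.0173). The calls for MRPS25, MRPL35 and MRPL50 were each lost when single shTRIB3 libraries were left out (adjusted p up to 0.133 without shTRIB3-1 replicate 3 for MRPS25, and 0.0671 and 0.0609 without shTRIB3-1 replicate 1 for MRPL35 and MRPL50). For MRPL47 the difference of 0.13 did not pass (adjusted p = 0.052) but did on the TPM scale (0.0322), and for MRPL17 the 95% interval was -0.14 to 0.09.

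Other parts of the mitochondrial translation machinery were followed by lists. Of 28 tested assembly factors, 17 fell and 4 rose with shTRIB3-1 and 18 fell and 5 rose with shTRIB3-2, with medians of -0.23 and -0.22. The lower shares were 60.7% and 64.3% and the higher shares 14.3% and 17.9%. Over all tested genes 41.5% and 40.5% were lower and 32.9% and 35.4% higher. At a filter of 5 FPKM the shTRIB3-1 count of lower factors was 11. RCC1L, a factor for the large subunit, fell by 0.53 and 0.60 on the log2 scale, NOA1, a GTPase, by 0.49 and 0.80, and MRM1, a ribosomal RNA methyltransferase, by 0.63 and 0.83. NGRN, which is needed for the large ribosomal RNA, was at mean levels of 76.5, 108 and 130 FPKM in shCtrl, shTRIB3-1 and shTRIB3-2 and rose by 0.50 and 0.76 (limma adjusted p = 1.88e-08 and 3.39e-10). Of 5 mitoribosome proteins with other symbols, 4 fell with each hairpin (80%, against 41.5% and 40.5% over all tested genes). PTCD3 (mS39) was among them, with falls of 0.40 and 0.41.

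Among 16 tested translation factors, 9 fell and 3 rose with shTRIB3-1 and 9 fell and 0 rose with shTRIB3-2 by limma, the last being 1 at an unadjusted p under 0.05, with medians of -0.23 and -0.21. The lower share was 56.25% with each hairpin, against 41.5% and 40.5% over all tested genes. GFM2, the mitochondrial elongation factor G that recycles ribosomes, was at means of 12.3, 5.66 and 5.10 FPKM in shCtrl, shTRIB3-1 and shTRIB3-2. It fell by 1.1 and 1.25 on the log2 scale (limma adjusted p = 9.85e-09 and 2.55e-09), past every mitochondrial ribosomal protein gene but MRPL47. OXA1L, which inserts the products into the inner membrane, fell by 0.30 and 0.40. Of 22 genes for mitochondrial transcription and RNA stability, 9 fell and 4 rose with shTRIB3-1 and 11 fell and 3 rose with shTRIB3-2, with medians of -0.08 and -0.14. The lower shares, 40.9% and 50%, stood against 41.5% and 40.5% over all tested genes, and the shTRIB3-1 median was -0.0029 after median centring. TFAM, which packages and transcribes mitochondrial DNA, fell by 0.29 and 0.36, MTPAP, the mitochondrial poly(A) polymerase, by 0.65 and 0.63, and FASTKD5, an RNA-processing factor, rose by 0.62 with either hairpin.

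The messenger RNAs that the mitochondrial ribosome translates did not move with the members. Of 13 such mRNAs, 11 rose and 1 fell with shTRIB3-1, and 7 rose and 1 fell with shTRIB3-2, with medians of 0.26 and 0.31, the latter 0.19 without shTRIB3-2 replicate 2. The higher shares were 84.6% and 53.8%, against 32.9% and 35.4% over all tested genes. The counts of higher mRNAs with shTRIB3-1 depended on single libraries, being 5 without shCtrl replicate 2, 7 without shCtrl replicate 3 and 5 without shTRIB3-1 replicate 1, and without a filter on low values they were 4 with shTRIB3-1 and 3 with shTRIB3-2. COX1, a catalytic subunit of cytochrome c oxidase, had means of 10413, 11886 and 13229 FPKM and rose by 0.19 and 0.35 on the log2 scale (limma adjusted p = 0.0233 and 0.000551). The first value of COX1 was lost without shCtrl replicate 3, shTRIB3-1 replicate 1 or shTRIB3-1 replicate 2 (adjusted p = 0.13, 0.108 and 0.0547), and neither passed without a filter on low values (0.291 and 0.0592). ND6, the mRNA encoded on the other strand of mitochondrial DNA, was at 151, 202 and 143 FPKM in shCtrl, 76.6, 102 and 91.8 with shTRIB3-1, and 111, 80.9 and 81.0 with shTRIB3-2, and fell by 0.87 and 0.86 (adjusted p = 0.000177 and 0.000183). Between the hairpins 0 of the 13 mRNAs passed by limma, against 25.1% of all tested genes higher and 20.7% lower. Of the 13, 2 passed at an unadjusted p under 0.05. All 13 together took 5.57% ± 0.462, 6.59% ± 0.374 and 6.78% ± 0.388 of the fragments in shCtrl, shTRIB3-1 and shTRIB3-2 (SD, n = 3).

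Cytosolic ribosomal protein genes behaved differently between the hairpins. Of 82 tested, 42 fell and 2 rose with shTRIB3-1, or 23 fell after median centring, and 72 fell and 0 rose with shTRIB3-2 by limma, the last also 0 at an unadjusted p under 0.05. The lower shares were 51.2% and 87.8%, against 41.5% and 40.5% over all tested genes. The median of the cytosolic genes was -0.12 with shTRIB3-1, or -0.038 after median centring, and -0.43 with shTRIB3-2. Between the hairpins, 70 of the 82 were lower with shTRIB3-2 (85.4%, against 20.7% over all tested genes). The median difference was -0.35, whereas the median difference over the 77 mitochondrial members was 0.00. The cytosolic genes took 3.74% ± 0.144, 3.39% ± 0.0684 and 2.65% ± 0.0998 of the fragments in the 3 groups (SD, n = 3).

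Of 8 tested regulators of nuclear genes for mitochondria, 3 were lower and 4 higher with shTRIB3-1, and 5 lower and 3 higher with shTRIB3-2. The lower shares were 37.5% and 62.5%, against 41.5% and 40.5% over all tested genes. The higher shares were 50% and 37.5%, against 32.9% and 35.4%. The lower share with shTRIB3-1 and the higher share with shTRIB3-2 were thus near the background. PPARGC1A, the coactivator PGC-1α, had means of 1.81, 0.305 and 0.392 FPKM in shCtrl, shTRIB3-1 and shTRIB3-2. It reached the 1 FPKM filter in the 3 shCtrl libraries and in 0 of the 6 others, so the filter favoured a lower value in the knockdowns, and its log2 fold changes of -2.23 and -1.96 are a description although it is among the lower genes counted. NRF1 fell by 0.46 and 0.41 and YY1 by 0.25 and 0.20. GABPB1, a GABP subunit, rose by 0.58 and 0.52, and ESRRA, an orphan receptor, rose by 0.38 and 0.35. GABPA, the DNA-binding GABP subunit, had a log2 fold change of -0.03 with shTRIB3-1 (adjusted p = 0.754) and fell by 0.34 with shTRIB3-2 (adjusted p = 0.00281).

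Promoter letters were counted over the RefSeq windows from 250 bases before to 50 bases after the first listed start, on both strands. A window was found for 69 of the 78 members. The windows not found were those of MRPL2, MRPL10, MRPL13, MRPL15, MRPL21, MRPL23, MRPL35, MRPS28 and MRPS36. The ETS motif CCGGAAG was in 29 (42.0%), against 20.6% of 9088 tested genes with a window and 10.7% of all 27305 genes. The YY1 motif AAGATGGCG was in 13 (18.8%), against 4.37% and 1.85%. The NRF1 motif was in 8 (11.6%), against 12.4% and 6.28%, and CCAAT was in 20 (29.0%), against 37.0% and 35.7%. The pattern of 4 G runs described for MRPS6 was in 12 (17.4%), against 33.7% and 24.1%, and the median GC content was 60.3%, against 65.3% and 58.3%.

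The changes were set beside the motifs as a description. The 8 members with the NRF1 motif, which were MRPL14, MRPL17, MRPL30, MRPL36, MRPL45, MRPL57, MRPS9 and MRPS33, all fell with both hairpins, with medians of -0.42 and -0.35, against -0.22 and -0.21 for 60 tested members without it. Of those 60, 40 fell with shTRIB3-1 and 34 with shTRIB3-2. Over all tested genes 41.5% and 40.5% were lower. Of the 8 with the motif, 6 are MRPL genes and 2 are MRPS genes, and the MRPL genes were the lower subunit by name. Tested genes outside the family that carry the motif were not compared, so a link to the motif was not tested. The shTRIB3-1 call of MRPL45 was lost after median centring (limma adjusted p = 0.487). The 12 tested members with the YY1 motif had medians of -0.06 and -0.02, against -0.26 and -0.27 for 56 without. The 29 with the ETS motif had medians of -0.25 and -0.21, close to the -0.23 and -0.26 of those without. The 11 tested members with the G-run pattern had medians of -0.15 and -0.16, against -0.26 and -0.26 for 57 without. A match says only that the letters are present in the window.

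Many members share a start region with another protein-coding gene on the opposite strand. Such a neighbour, called divergent here, had its start within 1000 bases, on either side of the member's start. It was annotated for 27 members, and 24 had a neighbour that was tested, with MRPL46 and MRPS11 being each other's. Some neighbours start inside the member, so the genes overlap and reads there may belong to either. Examples are MRPL14 with TMEM63B, MRPL51 with NCAPD2, MRPS18B with PPP1R10 and MRPS7 with GGA3. With shTRIB3-1 both genes of a pair passed the test for 12 members (50%), in the same direction for 12 and in opposite directions for 0. Over the 1638 tested genes with such a tested neighbour, both passed for 53.7%, and 64.2% of those moved in the same direction. With shTRIB3-2 both passed for 14, in the same direction for 11 and in opposite directions for 3, the last being MRPL14 with TMEM63B, MRPL32 with PSMA2 and MRPL50 with ZNF189. The same shares over the 1638 genes were 54.3% and 62.5%. The same-direction pairs with each hairpin include MRPL27 with EME1 and MRPL13 with MTBP, whose neighbours passed the filter through shCtrl alone. They also include MRPL52 with SLC7A7, whose neighbour passed through the knockdown libraries alone. The filter favoured the direction of these neighbours, so the pair counts are descriptions.

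The pairs named next were chosen after their values had been seen. MRPL47 starts 41 bases from NDUFB5, a complex I subunit gene, whose means were 13.3 ± 0.0624, 12.7 ± 0.0995 and 13.01 ± 0.328 FPKM in shCtrl, shTRIB3-1 and shTRIB3-2 (SD, n = 3). The log2 fold changes of NDUFB5 were -0.07 (95% interval -0.15 to 0.01) and -0.03 (-0.11 to 0.05), so the intervals leave out a change as large as that of MRPL47. MRPL50 and ZNF189, 233 bases apart, also differed, with log2 fold changes of -0.06 (limma adjusted p = 0.212) and 0.11 (adjusted p = 0.0357) for ZNF189. At 59 bases from MRPL52, the amino acid transporter gene SLC7A7 had means of 0.212, 2.30 and 1.15 FPKM, with log2 fold changes of 2.96 and 2.03, and passed the filter through the knockdown libraries alone. At 109 bases from MRPL18, TCP1, a chaperonin subunit gene, had means of 246, 351 and 297 FPKM and rose by 0.51 and 0.27.

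Other neighbours had log2 fold changes further below 0 than the members beside them, and these differences were not tested. SKA3, a kinetochore gene 106 bases from MRPL57, fell by 1.69 and 2.48, where MRPL57 fell by 0.59 and 0.53. NCAPD2, a condensin gene whose transcript covers 27.6% of the exon bases of MRPL51 from the other strand, had means of 34.2, 9.68 and 4.99 FPKM and fell by 1.81 and 2.76, where MRPL51 fell by 0.45 and 0.37. EME1, a partner of the resolvase MUS81, starts 13 bases from MRPL27 and had means of 3.08, 0.816 and 0.296 FPKM. MTBP, beside MRPL13, had means of 1.29, 0.415 and 0.237 FPKM. Both reached the 1 FPKM filter in shCtrl alone, so their log2 fold changes of -1.79 and -3.01 for EME1 and -1.44 and -2.04 for MTBP are descriptions, whereas MRPL27 fell by 0.37 and 0.27 and MRPL13 by 0.50 and 0.46. For MRPS12 and SARS2, the mitochondrial seryl-tRNA synthetase gene 181 bases away, the falls were 0.21 and 0.32 for MRPS12 and 0.79 and 0.95 for SARS2.

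**Figure D4:**
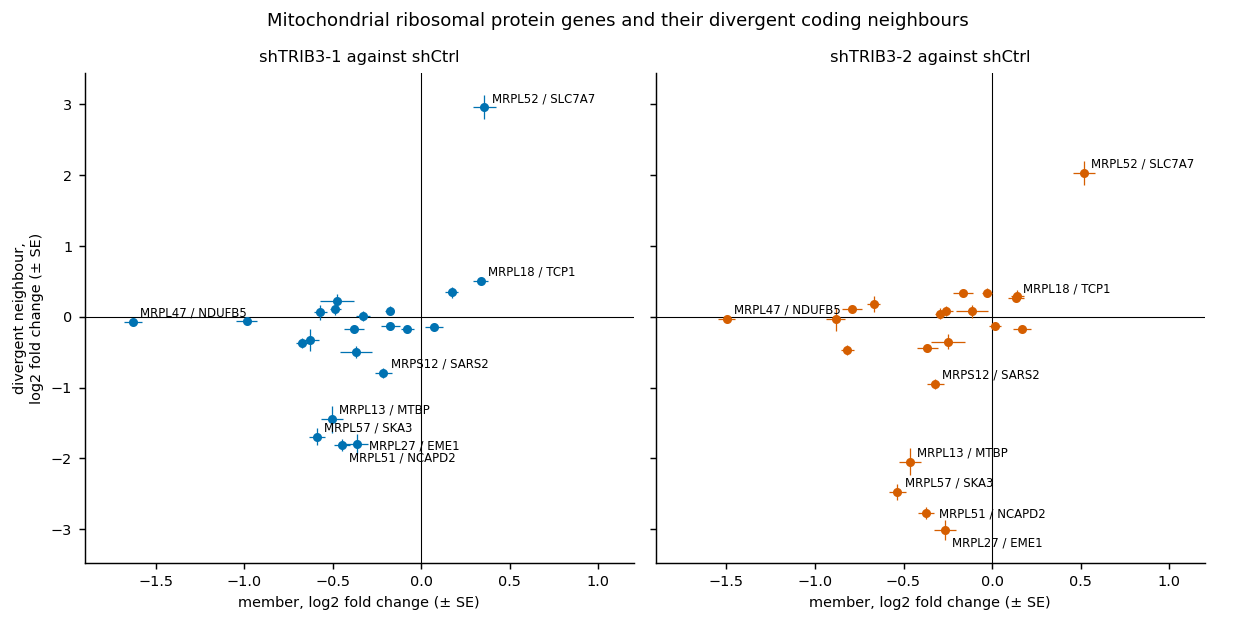
Log2 fold change against shCtrl of members (x axis) and of their divergent coding neighbours (y axis) with shTRIB3-1 (left) and shTRIB3-2 (right), with bars for ± 1 SE and the pair of MRPL46 and MRPS11 left out. MRPL47 lies far left while NDUFB5 stays near 0, and the pairs of MRPL27, MRPL51, MRPL57 and MRPL13 lie low, with neighbours at -1.44 to -3.01.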

How the data were processed

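RNA-seq of 9 HepG2 libraries was read from 1 table of the series. The deposited values are FPKM, computed by the authors and laid out with libraries as columns and gene symbols as lines. The submitters' processing notes name HTSeq, R 3.2.0 and GRCh38, and the study's methods name STAR, DESeq2 and a strand-specific kit, whereas the labels name another kit. The study's RNA-seq methods speak of glutamine-deprived cells and the labels of these libraries do not, so the medium at harvest is not settled. The annotation release and the strand setting are not given in the sources used here, so sense and antisense reads may not have been separated. FPKM does not correct for a shift in composition between libraries.

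Libraries were grouped by their labels. Values were taken as log2(FPKM + 0.1), genes with at least 1 FPKM in at least 3 of 9 libraries were kept (11265), and limma 3.58.1 (R 4.3.3) fitted 3 group means over the 9 libraries (empirical Bayes with a mean-variance trend, two-sided, Benjamini-Hochberg adjustment over all tested genes, threshold 0.05). The fit was tested on simulated data. A 2-fold change is an absolute log2 fold change above 1. The labels name no batch and do not say that libraries came from separate cultures, so p-values measure the spread between these samples, which may be technical.

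Depth was recovered from the FPKM steps, with 172769 values above 0 all within 0.02 of a whole number of fragments. Without molecular identifiers, counting error understates the error of a library. Replicate libraries differed by more than sampling noise. Exon overlap was computed with GENCODE v44, and hairpin sequences came from the study's supplement.

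The members and the gene lists were chosen with earlier results of these data known. Members named were those past 2-fold, the 8 highest and 8 lowest by the mean of both hairpins among members past the test in 1 direction with both, the 4 that differed most between the hairpins, the 3 highest and 3 lowest in shCtrl, the MRPS18 paralogs, MRPS30, MRPS36, MRPL58 and the member not tested, beside genes of the lists. Alternatives were other pseudocounts (0.01 and 1), low filters (none and 5 FPKM), scalings (median centring and TPM), a replicate block, no trend, 6 libraries only, each library left out, subunits by structure and, added after seeing the data, members with little exon overlap.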

Additional observations from a re-analysis of the deposited data

How the results depend on the processing

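Of 282 alternative values of the counts and subunit medians, 260 stayed close to the reported ones and 22 moved. No subunit median against shCtrl changed sign, but between the hairpins, where they lie near 0, the large-subunit median of 0.012 turned negative after median centring and without shTRIB3-1 replicate 3 or shTRIB3-2 replicate 2 (-0.003), and the small-subunit median of -0.025 turned positive on the TPM scale (0.0054) and without shTRIB3-2 replicate 1 (0.0028). Named members kept their direction and their side of the threshold against shCtrl in 992 of 1004 alternatives, with 7 weaker and 5 stronger. Median centring gave large-subunit medians of -0.22 with shTRIB3-1, -0.23 with shTRIB3-2 and -0.017 between the hairpins, small-subunit medians of -0.084 and -0.056 against shCtrl, and 8 members higher between the hairpins. TPM scaling gave large-subunit medians of -0.35, -0.30 and 0.043, a small-subunit median of -0.22 with shTRIB3-1, and 3 members past 2-fold with shTRIB3-1 (MRPL47, MRPL35 and MRPL50). Placing subunits by structure gave -0.26 for the large and -0.18 for the small subunit with shTRIB3-1. Members with at most 10% exon overlap, an alternative chosen after seeing the data, gave -0.33 for the large subunit with shTRIB3-1 and -0.024 and -0.0029 for the small subunit with shTRIB3-1 and shTRIB3-2. Among genes of the other lists, the log2 fold change of TUFM, the mitochondrial elongation factor Tu, turned from -0.07 to 0.0095 with shTRIB3-1 after median centring. The cause of these shifts beyond the construction of each alternative was not tested.

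Leaving out 1 library at a time gave, against shCtrl, 9 to 11 risen and 50 to 52 fallen members for shTRIB3-1 and 10 to 12 and 43 to 51 for shTRIB3-2, and between the hairpins 7 to 16 and 13 to 19, where 7 came without shTRIB3-1 replicate 1. Members past 2-fold with shTRIB3-1 numbered 1 to 2, with MRPL50 added without shTRIB3-1 replicate 2 and MRPL35 without shTRIB3-1 replicate 3. The large-subunit median ran from -0.31 to -0.27, from -0.30 to -0.27 and from -0.012 to 0.029 in the 3 comparisons. The small-subunit median ran from -0.16 to -0.14, from -0.14 to -0.055, with -0.055 without shCtrl replicate 2, and from -0.05 to 0.00.

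Libraries with the same replicate number deviated together weakly or not at all (correlations of deviations from -0.07 to 0.09). For shCtrl with shTRIB3-1 the same-number values were 0.023 to 0.039, and other-number values were at most 0.0020. For shTRIB3-1 with shTRIB3-2 they were 0.028 to 0.093, against at most 0.014. For shCtrl with shTRIB3-2 they were -0.074 to 0.0042, and other-number values reached 0.048. The numbers were not taken to pair the libraries, and a replicate block was fitted as an alternative. With a replicate block, shTRIB3-1 gave 10 risen and 53 fallen members, shTRIB3-2 gave 11 and 49, and between the hairpins 15 and 19 passed, with 1, 1 and 0 past 2-fold and subunit medians as reported. With limits set by the spread of 3 libraries per group, the smallest changes and the lowest members, such as MRPS28 with 70 to 126 fragments per library, were the least certain.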
